A study of Mus musculus with 20 samples.

Results

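Loss of Tet2 was set against the Idh1 mutation R132H in mouse LSK cells, the bone marrow fraction that carries no lineage markers and is positive for cKit and Sca1, which holds haematopoietic stem cells and early multipotent progenitors. The comparison took 8 of the 20 RNA-seq libraries of the study, chosen by genotype alone, with 4 Tet2KO and 4 Idh1R132H libraries. Tet2KO mice carried Tet2-/-, and their label names no Cre. Idh1R132H mice carried 1 conditional allele, Idh1LSL-R132H/+, switched on by Vav-Cre, which acts in blood-forming cells. The WT mice (+/+ with Vav-Cre, 4 libraries) are given for reference, and the remaining 8 libraries, of the Idh2R140Q and Idh2R172K groups, entered only the estimate of the spread. All mice were C57Bl/6J of 3 to 4 months, and total RNA of 2 pooled mice went into each library. Since the groups differ both in Vav-Cre, as labelled, and in the mutation, these cannot be told apart in this design. The parts of Tet2 that were deleted are not given in the sources used here.

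Tet2 encodes a dioxygenase that uses 2-oxoglutarate and iron to oxidise 5-methylcytosine in DNA, a step on the way to losing the methyl mark. Idh1 encodes the cytosolic isocitrate dehydrogenase, which normally makes 2-oxoglutarate, and the R132H enzyme makes 2-hydroxyglutarate instead, a compound known to inhibit dioxygenases including TET2. Both genes are mutated in human myeloid leukaemia, where the 2 kinds of mutation seldom occur together. The question of the comparison is therefore how far LSK cells that lack Tet2 resemble LSK cells that hold the mutant Idh1 enzyme.

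The values are TPM, transcript abundance corrected for gene length and library size, in which each library sums to the same total. Depth rebuilt from the TPM was 35.2 to 37.96 M assigned reads in Tet2KO and 37.3 to 43.6 M in Idh1R132H. Library Tet2KO 2 stood apart from all others. The rRNA-like gene Gm23935 took 20.0% of its TPM, against 9.57 to 10.9% in the other Tet2KO libraries and 7.67 to 12.8% in Idh1R132H. The long genes of Tet2KO 2 were lower relative to its short genes, with a log2 difference of -0.77 between the longest and the shortest genes by exon length, against -0.28 to -0.05 in the other Tet2KO libraries and -0.04 to 0.21 in Idh1R132H. Its Kit level, 432, 97.9, 456 and 334 TPM in Tet2KO 1 to 4 and 341, 408, 424 and 438 TPM in Idh1R132H 1 to 4, was also the lowest of the 8. Idh1R132H 4 was the library with the lowest share of Gm23935 and the highest ratio of long to short genes among the 8. The libraries numbered 4 of WT and the 3 Idh groups had 7.56 to 8.13% Gm23935, against 11.01 to 13.5% in the other libraries of those groups. Kit and Ly6a, the genes of the 2 positive sort markers, were present in every library. Cd3e and Cd8a of T cells reached at most 1.08 and 0.929 TPM in any of the 8, but other T cell RNA was present. Trbc2, of the T cell receptor, was at 5.97 to 18.8 TPM in Tet2KO and 1.44 to 4.83 TPM in Idh1R132H. The whole list of T and NK markers summed to 76.4 to 104 TPM in Tet2KO and 40.9 to 94.4 TPM in Idh1R132H. Results are therefore given with and without Tet2KO 2, and a called gene with no second value stayed called without it. By sex-linked RNA each group had 2 male and 2 female pools, and no gene had an effect that differed by sex at an adjusted p under 0.05 in limma (502 at an unadjusted p under 0.05).

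The targeted genes were examined first. Tet2 (ENSMUSG00000040943, chr3:133463679-133545139, minus strand) stood at 11.2, 5.74, 12.2 and 10.6 TPM in Tet2KO 1 to 4 and 8.11, 7.71, 8.51 and 11.1 TPM in Idh1R132H 1 to 4. The groups overlapped, with a log2 difference of 0.11 ± 0.20 (SE; adjusted p = 0.715), and 0.33 (adjusted p = 0.184) without Tet2KO 2. A sum over the whole gene does not check the knockout, because the deleted exons are not given and the remaining exons may still yield reads. Idh1 (ENSMUSG00000025950, chr1:65158616-65186500, minus strand) stood at 85.1, 56.0, 91.4 and 88.9 TPM in Tet2KO and 114, 83.3, 122 and 95.8 TPM in Idh1R132H. These values overlapped as well, with a log2 difference of -0.38 ± 0.16 (SE; adjusted p = 0.12), and -0.21 (adjusted p = 0.327) without Tet2KO 2, and a gene sum cannot show a single-base mutation. The mitochondrial enzyme gene Idh2 stood at 565, 512, 609.6 and 597 TPM in Tet2KO and 487, 503, 496 and 624 TPM in Idh1R132H, again with overlap, with a log2 difference of 0.12 ± 0.11 (SE; adjusted p = 0.465), and 0.17 (adjusted p = 0.327) without Tet2KO 2. Neither of the other TET genes passed the test: Tet1 had a log2 difference of -0.15 ± 0.15 (adjusted p = 0.511) and Tet3 of -0.06 ± 0.12 (adjusted p = 0.766).

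Across the transcriptome, 14296 genes had a mean of at least 1 TPM over the 8 libraries, and 1990 of them (13.9%) differed between Tet2KO and Idh1R132H at an adjusted p under 0.05. Of these, 1027 (7.18% of tested genes) were higher in Tet2KO and 963 (6.74%) were lower. At least a 2-fold difference on the log2(TPM + 1) scale was reached by 107 of the higher (0.748% of tested) and 136 of the lower genes (0.951%). Without Tet2KO 2 there were 1643 genes (11.5%), 1024 higher (7.16%) and 619 lower (4.33%), and 1317 genes (9.21%) were called in both fits in the same direction, 723 higher (5.06%) and 594 lower (4.16%). The count of called genes was 1013 without Tet2KO 4, 1131 without Idh1R132H 1, 1094 without Idh1R132H 2, 691 without Idh1R132H 3 and 1291 without Idh1R132H 4, and without Tet2KO 1 the lower count was 1510. Of the called genes 51.6% were higher on the values as deposited, against 64.2% with limma-voom on the rebuilt reads, 76.0% with library weights, 42.7% under median-of-ratios scaling and 42.9% under quantile scaling. The median difference of all tested genes was 0.01 with Tet2KO 2 and 0.09 without it. Irrespective of the test, 1443 genes (10.1%) had all 4 Tet2KO libraries above all 4 Idh1R132H libraries and 1611 (11.3%) had them below.

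The red cell programme was lower in Tet2KO, and its list had the lowest median of the 25 lists of cell programmes and processes both with and without Tet2KO 2. Of 29 tested members of the erythroid priming list, 15 fell and 1 rose, with a median log2 difference of -0.69, beside 6.74% of all tested genes that fell and a median of 0.01. Without Tet2KO 2 the list had 13 lower and 1 higher, with a median of -0.62, and leaving out any other single library gave 13 to 15 lower. Without Idh1R132H 3 no member rose. The lower genes include transcription factors, the erythropoietin receptor, and surface and skeleton proteins of the red cell. In bulk RNA, fewer cells with this programme and less of its RNA per cell cannot be told apart.

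Gata1 and Klf1, which direct red cell fate, both fell. Gata1, the zinc finger factor needed for red cell and megakaryocyte development (ENSMUSG00000031162, chrX:7959260-7978071, minus strand), stood at 33.2, 24.6, 28.4 and 31.7 TPM in Tet2KO 1 to 4, against 65.2, 58.5, 58.8 and 54.7 TPM in Idh1R132H 1 to 4. The groups were far apart, with the highest Tet2KO library well under the lowest Idh1R132H library. The log2 difference was -0.99 ± 0.12 (SE; adjusted p = 3.23e-04), and -0.91 (adjusted p = 7.67e-04) without Tet2KO 2. Klf1, the factor that switches on adult globin and many red cell genes (ENSMUSG00000054191, chr8:84901928-84905291, plus strand), was at 30.5, 28.7, 24.9 and 28.9 TPM in Tet2KO and 78.7, 67.8, 62.2 and 57.2 TPM in Idh1R132H. Here too no library of either group reached the other, and the difference was -1.20 ± 0.12 (SE; adjusted p = 2.16e-05), and -1.21 (adjusted p = 6.56e-05) without Tet2KO 2. By contrast Tal1, Lmo2 and Gfi1b, further factors of this lineage, did not pass the test, with log2 differences of 0.05, -0.07 and -0.32.

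The receptor and the surface proteins followed the same pattern. Epor, the erythropoietin receptor (ENSMUSG00000006235, chr9:21958897-21963506, minus strand), was at 14.6, 11.96, 15.1 and 17.4 TPM in Tet2KO and 25.8, 25.2, 22.5 and 27.1 TPM in Idh1R132H. Epor had a log2 difference of -0.74 ± 0.12 (SE; adjusted p = 0.00279), and -0.65 (adjusted p = 0.00417) without Tet2KO 2. Aqp1, a water channel of the red cell membrane, was at 57.4, 44.6, 51.0 and 45.5 TPM in Tet2KO and 104, 107, 108 and 106 TPM in Idh1R132H. Aqp1 had a log2 difference of -1.09 ± 0.13 (SE; adjusted p = 2.12e-04), and -1.04 (adjusted p = 7.67e-04) without Tet2KO 2. In both genes the groups were separate, and the Idh1R132H values of Aqp1 were almost identical to each other. Ermap, a membrane protein of red cell precursors (ENSMUSG00000028644, chr4:119175457-119190011, minus strand), showed the widest gap of these, at 10.4, 5.89, 10.3 and 12.5 TPM in Tet2KO and 28.6, 28.0, 25.9 and 24.4 TPM in Idh1R132H. Ermap had a log2 difference of -1.40 ± 0.18 (SE; adjusted p = 4.02e-04), and -1.20 (adjusted p = 6.23e-04) without Tet2KO 2. Of the blood group genes, Rhd had a log2 difference of -1.17 (adjusted p = 0.00207), Rhag of -0.98 (adjusted p = 0.00239) and Kel of -0.81 (adjusted p = 0.0295, or 0.0755 without Tet2KO 2). Sphk1, which makes sphingosine 1-phosphate, and Mfsd2b, which exports it from red cells, had differences of -1.27 (adjusted p = 1.08e-04) and -0.96 (adjusted p = 0.00687). The 1 member that rose was Cnrip1, at 18.3, 15.0, 18.4 and 22.6 TPM in Tet2KO and 10.2, 11.1, 8.86 and 12.9 TPM in Idh1R132H. Cnrip1 had a log2 difference of 0.73 ± 0.17 (SE; adjusted p = 0.0132), and 0.83 (adjusted p = 0.00947) without Tet2KO 2.

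Up to 250 bases before the start of 3 of these genes are shown because each holds 1 copy of AGATAA or TGATAA, the letters to which GATA factors are known to bind. They are from RefSeq on GRCm38.p6, written 5′ to 3′ on the gene's strand, with the match in capitals as it reads on that strand (TTATCT and TTATCA are the reverse complements). Bases that GENCODE M21 places inside the gene are left off, which leaves 196 for Klf1, 250 for Epor and 234 for Ermap. The regions are chr8:84901732-84901927, plus strand, for Klf1, chr9:21963577-21963826, minus strand, for Epor and chr4:119190012-119190245, minus strand, for Ermap.
Klf1: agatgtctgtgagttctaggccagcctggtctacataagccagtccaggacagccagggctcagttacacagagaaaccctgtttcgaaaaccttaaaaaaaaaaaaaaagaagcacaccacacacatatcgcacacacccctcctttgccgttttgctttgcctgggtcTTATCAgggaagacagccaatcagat
Epor: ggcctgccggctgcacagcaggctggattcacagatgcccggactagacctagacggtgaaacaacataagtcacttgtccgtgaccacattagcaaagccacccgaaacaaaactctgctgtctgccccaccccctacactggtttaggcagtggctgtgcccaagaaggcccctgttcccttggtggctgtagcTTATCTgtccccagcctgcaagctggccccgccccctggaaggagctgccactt
Ermap: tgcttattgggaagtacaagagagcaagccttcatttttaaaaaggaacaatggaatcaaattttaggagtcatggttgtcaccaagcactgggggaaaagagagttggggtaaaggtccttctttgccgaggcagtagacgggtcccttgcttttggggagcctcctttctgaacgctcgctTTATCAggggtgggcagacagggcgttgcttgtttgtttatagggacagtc
Counted to the RefSeq start, the match begins 80 bases before Klf1, 54 before Epor and 67 before Ermap. On either strand such a match stood in 861 of the 9289 protein-coding tested genes with a window (9.27%) and in 66 of the 772 of them that fell (8.55%). For the erythroid list that check is void, because 22 of its 29 tested members have a window, fewer than 80%. A match is a run of letters and no measure of binding.

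**Figure D1:**
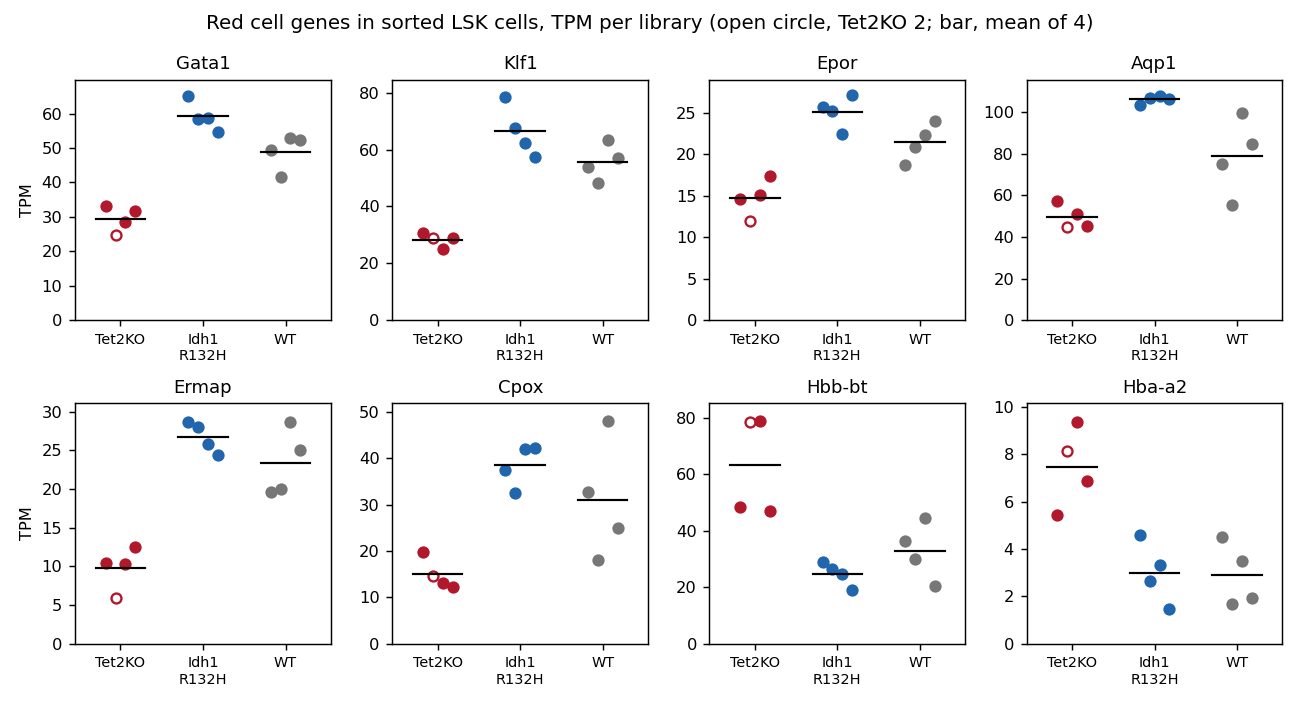
TPM (vertical axes, linear, from 0) of 8 red cell genes in each library of Tet2KO, Idh1R132H and WT, with the mean of 4 as a bar and Tet2KO 2 as an open circle. For Gata1, Klf1, Epor, Aqp1, Ermap and Cpox all 4 Tet2KO libraries lie below all 4 Idh1R132H libraries, and for the globin genes Hbb-bt and Hba-a2 they lie above.

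Haem synthesis and iron genes moved in part with this block. Of 24 tested members, 7 fell and 2 rose, with a median of -0.26, beside 6.74% and 7.18% of all tested genes. Without Tet2KO 2 it was 5 lower and 1 higher, with a median of -0.03, beside 4.33% and 7.16%. The count of lower members was 4 without Idh1R132H 1 and 3 without Idh1R132H 3. Cpox, coproporphyrinogen oxidase, changed most, at 19.8, 14.7, 13.1 and 12.2 TPM in Tet2KO and 37.3, 32.5, 42.0 and 42.1 TPM in Idh1R132H. The groups did not overlap, and the log2 difference was -1.32 ± 0.27 (SE; adjusted p = 0.00652), and -1.32 (adjusted p = 0.0111) without Tet2KO 2. Steap3, which reduces iron taken up with transferrin, had a difference of -0.70 (adjusted p = 0.00774), and Abcb10, a mitochondrial transporter of red cell precursors, of -0.84 (adjusted p = 0.012). Ftl1, ferritin light chain, and Hmox1, which breaks haem down, were the 2 that rose, by 0.28 (adjusted p = 0.00442) and 0.74 (adjusted p = 0.0403), and the Hmox1 call ended without Tet2KO 2 (adjusted p = 0.0683). The Ftl1 call ended with the length trend removed (adjusted p = 0.51), under median-of-ratios scaling (0.085), under quantile scaling (0.0526) and when only the 2 groups were fitted (0.0505), the last of which also ended that of Abcb10 (0.088).

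The adult globin genes went the other way. Hbb-bt, a beta-globin gene, was at 48.2, 78.6, 78.8 and 47.0 TPM in Tet2KO and 29.0, 26.4, 24.7 and 19.04 TPM in Idh1R132H. Hbb-bt had a log2 difference of 1.29 ± 0.25 (SE; adjusted p = 0.00519), and 1.17 (adjusted p = 0.0113) without Tet2KO 2. Hba-a2, an alpha-globin gene, was at 5.45, 8.15, 9.36 and 6.89 TPM in Tet2KO and 4.58, 2.63, 3.34 and 1.46 TPM in Idh1R132H. Hba-a2 had a log2 difference of 1.12 ± 0.28 (SE; adjusted p = 0.0183), and 1.07 (adjusted p = 0.0357) without Tet2KO 2, and that call ended without Idh1R132H 4 (adjusted p = 0.0528) and when only the 2 groups were fitted (adjusted p = 0.0506). Hbb-bs and Hba-a1 rose by 0.98 (adjusted p = 0.00832) and 0.62 (adjusted p = 0.0329; 0.0709 without Tet2KO 2). All 4 were higher in every Tet2KO library than in any Idh1R132H library, while their near-identical copies may share reads that the counting could split. Of the 10 tested genes of the red cell marker list, 4 rose and 2 fell, beside 7.18% and 6.74% of all tested genes. The higher count was 4 without Tet2KO 2, beside 7.16% of all, and 2 without Idh1R132H 4. The lower count was 1 without Tet2KO 2, 1 without Tet2KO 4, 1 without Idh1R132H 1, 1 without Idh1R132H 2, 1 without Idh1R132H 3 and 1 without Idh1R132H 4. The summed list ranged over 119.9 to 159 TPM in Tet2KO and 71.8 to 86.3 TPM in Idh1R132H. Alas2 and Slc4a1, late red cell genes of that list, did not pass the test, at 0.32 and -0.18. The preparation included lysis of red cells and depletion of cells with lineage markers before the sort. The part of residual mature red cells in the globin values was not tested.

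Part of the early myeloid programme was lower too. Of 31 tested members of the granulocyte-monocyte priming list, 10 fell and none rose in limma, with a median of -0.48, beside 6.74% of all tested genes that fell. Without Tet2KO 2 it was 7 and none, with a median of -0.47, beside 4.33%. The count was 5 without Tet2KO 3, 6 without Tet2KO 4, 4 without Idh1R132H 1, 5 without Idh1R132H 2 and 2 without Idh1R132H 3. Mpo, myeloperoxidase of the primary granule, was at 2411, 2184, 2598 and 2946 TPM in Tet2KO and 4989, 4042, 5281 and 3608 TPM in Idh1R132H, without overlap. Its log2 difference was -0.81 ± 0.20 (SE; adjusted p = 0.0167), and -0.74 (adjusted p = 0.0382) without Tet2KO 2, and the call ended without Idh1R132H 3 (adjusted p = 0.0581). Hk3, the hexokinase of myeloid cells, was at 90.0, 59.9, 95.0 and 81.4 TPM in Tet2KO and 167, 142, 179 and 179 TPM in Idh1R132H. Hk3 had a log2 difference of -1.04 ± 0.18 (SE; adjusted p = 0.00275), and -0.90 (adjusted p = 0.00514) without Tet2KO 2, and its call held in every alternative tried. F13a1, a subunit of clotting factor XIII made by monocytes and platelets, was at 68.7, 52.0, 86.6 and 76.6 TPM in Tet2KO and 207, 154, 271 and 159 TPM in Idh1R132H. F13a1 had a log2 difference of -1.45 ± 0.37 (SE; adjusted p = 0.0185), and -1.31 (adjusted p = 0.0435) without Tet2KO 2, with the call ending without Idh1R132H 3 (adjusted p = 0.0642). Cebpa, the transcription factor of early granulocyte fate, had a difference of -1.04 ± 0.34 (adjusted p = 0.0474) and Csf1r, the receptor for M-CSF, of -0.71 ± 0.21 (adjusted p = 0.032), with the call ending without Tet2KO 2 (adjusted p = 0.075), without Tet2KO 4 (adjusted p = 0.0709), without Idh1R132H 1 (adjusted p = 0.0576), without Idh1R132H 2 (adjusted p = 0.0573) and without Idh1R132H 3 (adjusted p = 0.101). Other genes of the programme did not pass the test: Prtn3, Csf3r and Plac8 had differences of -0.14, 0.01 and -0.10, and Spi1, which encodes PU.1, stood at 0.19 (adjusted p = 0.101). Markers of mature neutrophils, 9 tested, had no call in limma, and their sum ranged over 44.6 to 134 TPM in Tet2KO and 77.7 to 156 TPM in Idh1R132H.

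Several platelet genes fell. The megakaryocyte and platelet list had 6 of 21 tested members lower and none higher in limma, with a median of -0.51, beside 6.74% of all tested genes that fell. Without Tet2KO 2 it had 4 lower and 2 higher, with a median of -0.16, beside 4.33% and 7.16%. The lower count was 3 without Tet2KO 4, 3 without Idh1R132H 1, 3 without Idh1R132H 2 and 3 without Idh1R132H 3. Gp5, glycoprotein V of the platelet surface, was at 7.62, 3.04, 4.60 and 5.03 TPM in Tet2KO and 19.3, 18.3, 21.8 and 18.5 TPM in Idh1R132H, a wide separation with a difference of -1.80 ± 0.32 (SE; adjusted p = 0.00354), and -1.62 (adjusted p = 0.0074) without Tet2KO 2. Gp1bb, part of the same receptor for von Willebrand factor, was at 0.821, 0.654, 0.701 and 0.643 TPM in Tet2KO and 3.74, 2.89, 3.43 and 3.28 TPM in Idh1R132H. Gp1bb had a log2 difference of -1.34 ± 0.26 (SE; adjusted p = 0.00548), and -1.33 (adjusted p = 0.01) without Tet2KO 2. Vwf itself, which also marks a platelet-biased share of stem cells, was at 4.08, 1.19, 4.12 and 4.00 TPM in Tet2KO and 8.74, 9.54, 11.02 and 6.75 TPM in Idh1R132H, with Tet2KO 2 the lowest and the other Tet2KO libraries still below all Idh1R132H libraries, a log2 difference of -1.27 ± 0.28 (SE; adjusted p = 0.0109), and -0.96 (adjusted p = 0.0206) without Tet2KO 2.

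Genes of basophils and mast cells split. Hdc, histidine decarboxylase, which makes histamine, was at 5.96, 5.12, 7.82 and 11.3 TPM in Tet2KO and 24.8, 18.1, 22.2 and 16.2 TPM in Idh1R132H. Hdc had a log2 difference of -1.35 ± 0.22 (SE; adjusted p = 0.00228), and -1.21 (adjusted p = 0.00417) without Tet2KO 2. Ms4a2, a chain of the IgE receptor, was at 5.72, 3.27, 5.59 and 7.22 TPM in Tet2KO and 10.3, 9.45, 12.1 and 12.1 TPM in Idh1R132H. Ms4a2 had a log2 difference of -0.93 ± 0.18 (SE; adjusted p = 0.00548), and -0.74 (adjusted p = 0.00779) without Tet2KO 2. Il4, which encodes interleukin 4, went the opposite way, at 6.89, 6.12, 7.52 and 6.83 TPM in Tet2KO and 0.747, 1.16, 1.27 and 1.59 TPM in Idh1R132H (ENSMUSG00000000869, chr11:53602982-53618669, minus strand). These values rest on 93 to 116 rebuilt reads per library in Tet2KO and 12 to 24 in Idh1R132H, and the difference was 1.85 ± 0.22 (SE; adjusted p = 2.12e-04), and 1.90 (adjusted p = 7.67e-04) without Tet2KO 2. Other genes of the list, Prss34, Mcpt8 and Fcer1a, did not pass the test (0.23, 0.12 and -0.03), and the list sum ranged over 419 to 626 TPM in Tet2KO and 475 to 596 TPM in Idh1R132H.

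A few stem cell genes rose in Tet2KO, and more did without Tet2KO 2. Of 26 tested members of the stem cell list, 3 rose and 1, Vwf, fell, with a median of 0.23, beside 7.18% of all tested genes that rose. Without Tet2KO 2, in which this list was lowest of all 20 libraries, 10 rose (7.16% of all genes) and 1 fell, with a median of 0.42. Hoxb5 and Pdzk1ip1 were among the 3 that rose with all libraries. Hoxb5, a homeobox gene used to mark long-term stem cells, was at 1.83, 2.49, 2.59 and 2.11 TPM in Tet2KO and 1.10, 0.871, 1.01 and 0.437 TPM in Idh1R132H. Hoxb5 had a log2 difference of 0.82 ± 0.16 (SE; adjusted p = 0.00519), and 0.78 (adjusted p = 0.00947) without Tet2KO 2. Pdzk1ip1, a membrane protein enriched in stem cells, was at 88.3, 73.2, 88.9 and 76.5 TPM in Tet2KO and 53.2, 51.3, 44.0 and 46.7 TPM in Idh1R132H. Pdzk1ip1 had a log2 difference of 0.73 ± 0.16 (SE; adjusted p = 0.0111), and 0.78 (adjusted p = 0.012) without Tet2KO 2. Neither gene overlapped between the groups. Genes of the list called when Tet2KO 2 was left out, and not with it, included Clec1a (1.17, adjusted p = 0.0044), Esam (0.81, 0.00604), Tek (0.68, 0.0074), Robo4 (0.73, 0.0108), Prdm16 (0.59, 0.0135) and Meis1 (0.41, 0.0379). Procr, which encodes the stem cell surface protein EPCR, did not pass either test (0.66, adjusted p = 0.178).

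Among regulators of blood and leukaemia, 4 of 43 tested rose and 1, Cebpa, fell, with a median of -0.07. Of all tested genes 7.18% rose and 6.74% fell, so the higher count was near the share of all genes. Without Tet2KO 2, 5 rose and 1 fell, beside 7.16% and 4.33% of all. Without Idh1R132H 3 the higher count was 2. Hmga2, an architectural chromatin protein of fetal and self-renewing stem cells, was at 10.4, 17.9, 10.0 and 9.17 TPM in Tet2KO and 4.86, 5.21, 5.25 and 7.63 TPM in Idh1R132H. All Tet2KO libraries lay above all Idh1R132H libraries, a log2 difference of 0.91 ± 0.21 (SE; adjusted p = 0.0123), and 0.71 (adjusted p = 0.0256) without Tet2KO 2, and fitting only the 2 groups ended the call (adjusted p = 0.0581). The others that rose were Ikzf2, the factor Helios (0.68 ± 0.15, adjusted p = 0.00966), Hoxb4 (0.78 ± 0.19, adjusted p = 0.0147) and Erg, a stem cell ETS factor (0.54 ± 0.16, adjusted p = 0.032). The Hoxb4 call ended without Idh1R132H 3 (adjusted p = 0.0506), and that of Erg ended without Tet2KO 1 (adjusted p = 0.0583), without Tet2KO 3 (adjusted p = 0.0547), without Tet2KO 4 (adjusted p = 0.0619), without Idh1R132H 1 (adjusted p = 0.0721), without Idh1R132H 2 (adjusted p = 0.0723) and without Idh1R132H 3 (adjusted p = 0.104). The WT range for Hmga2 was 2.83 to 3.69 TPM, below every library of both mutant groups. In limma the log2 difference from WT was 1.55 for Tet2KO (adjusted p = 8.75e-04) and 0.65 for Idh1R132H, which did not pass the test.

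**Figure D2:**
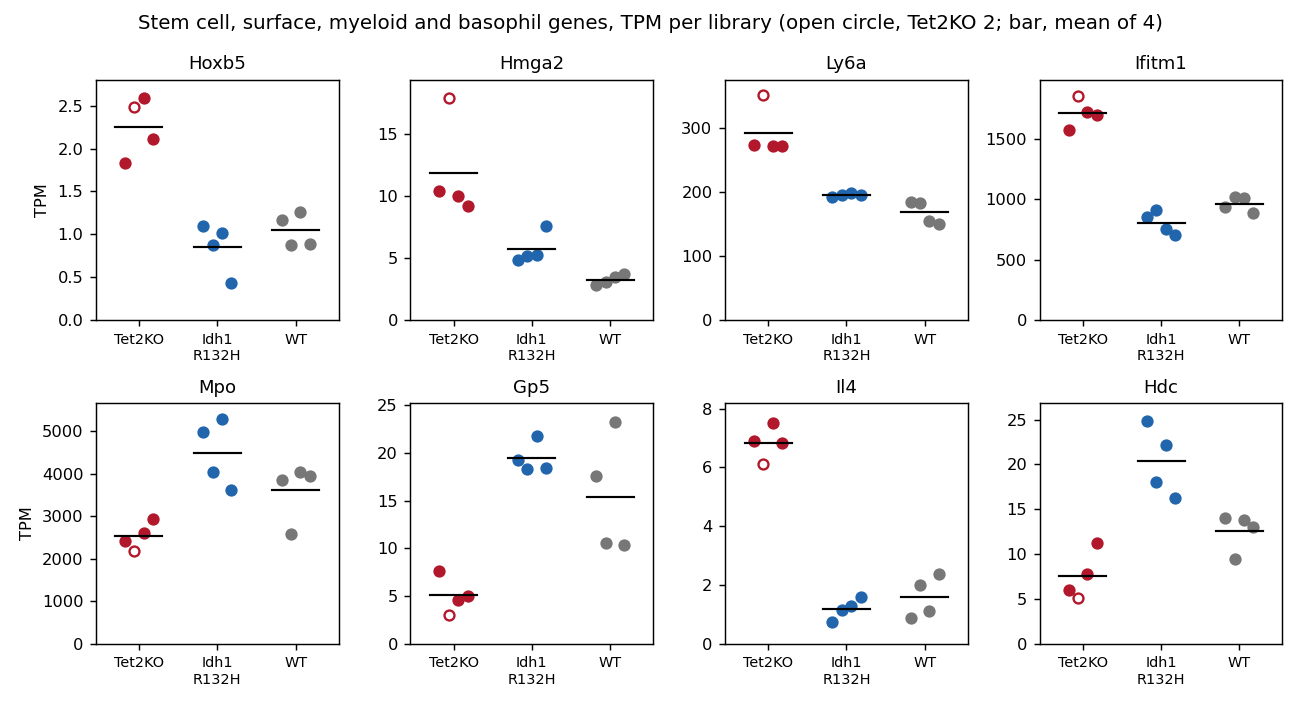
TPM (vertical axes, linear, from 0) of 8 genes in each library of Tet2KO, Idh1R132H and WT, with the mean of 4 as a bar and Tet2KO 2 as an open circle. Tet2KO lies wholly above Idh1R132H for Hoxb5, Hmga2, Ly6a, Ifitm1 and Il4, and wholly below it for Mpo, Gp5 and Hdc.

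Members of the Ifitm and Ly6 families of surface proteins rose. Of 8 tested, 4 rose and none fell in limma, with a median of 0.37, beside 7.18% of all tested genes that rose. Without Tet2KO 2 it was 2 (median 0.29), beside 7.16% of all, and without Idh1R132H 3 also 2. Ifitm1, a membrane protein induced by interferon and known to restrict viruses (ENSMUSG00000025491, chr7:140967221-140969825, plus strand), was at 1576, 1855, 1719 and 1696 TPM in Tet2KO and 852, 909.6, 754 and 700.3 TPM in Idh1R132H. The 2 groups were separated by a wide gap, and the difference was 1.09 ± 0.10 (SE; adjusted p = 4.98e-06), and 1.05 (adjusted p = 4.26e-05) without Tet2KO 2. Ly6a, which encodes Sca1, 1 of the 2 positive sort markers, was at 274, 350.2, 271 and 272 TPM in Tet2KO and 191, 195, 197 and 196 TPM in Idh1R132H. The sort gate selects cells by Sca1 protein, and the log2 difference was 0.57 ± 0.11 (SE; adjusted p = 0.00548), and 0.48 (adjusted p = 0.00937) without Tet2KO 2. Ifitm2 and Ly6d rose by 0.37 (adjusted p = 0.0403) and 1.14 (adjusted p = 0.044), and their calls ended without Tet2KO 2, Tet2KO 4, Idh1R132H 3 or Idh1R132H 4 (adjusted p = 0.0802 to 0.115) for Ifitm2 and without Tet2KO 1, Tet2KO 2, Idh1R132H 1, Idh1R132H 2 or Idh1R132H 3 (adjusted p = 0.053 to 0.127) for Ly6d. The Ifitm2 call also ended with the length trend removed (adjusted p = 0.589) and under median-of-ratios scaling (0.179). The wider interferon response list had a median of 0.08 with 1 of 41 tested members lower (Oas3, -0.77, adjusted p = 0.0372) and none higher in limma. Of all tested genes 6.74% fell. Without Tet2KO 2 the list had none lower and 1 higher, beside 7.16% of all tested genes that rose. The Oas3 call ended without Tet2KO 2 (adjusted p = 0.0682), without Tet2KO 4 (adjusted p = 0.0604), without Idh1R132H 1 (adjusted p = 0.0743), without Idh1R132H 3 (adjusted p = 0.0988) and without Idh1R132H 4 (adjusted p = 0.0874).

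**Figure D3:**
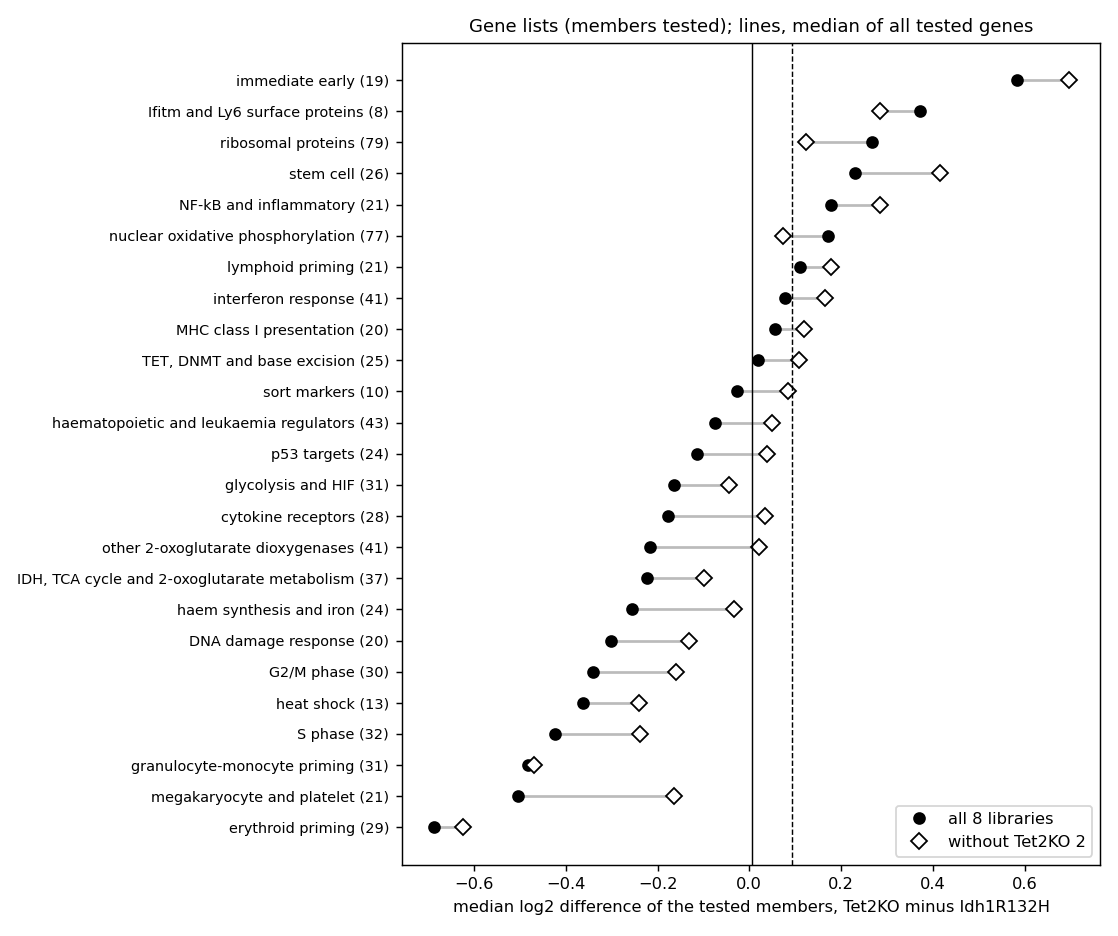
Median log2 difference, Tet2KO minus Idh1R132H (horizontal axis), of the tested members of 25 gene lists, with all 8 libraries (filled circles) and without Tet2KO 2 (open diamonds), beside the median of all tested genes in each fit (solid and dashed lines). The erythroid list lies lowest in both fits at -0.69 and -0.62, while the megakaryocyte list is at -0.51 with Tet2KO 2 and -0.16 without it.

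Some cell cycle genes fell in Tet2KO, in numbers that changed with the libraries used. In the S phase list 12 of 32 tested members fell and none rose in limma (median -0.42), and in the G2/M list 6 of 30 fell and none rose (median -0.34). Of all tested genes 6.74% fell. Without Tet2KO 2 the counts were 4 and 4, with medians of -0.24 and -0.16, beside 4.33% of all. For S phase the count was 4 without Tet2KO 2, 6 without Tet2KO 4, 5 without Idh1R132H 1, 5 without Idh1R132H 2, 2 without Idh1R132H 3 and 2 without Idh1R132H 4, and for G2/M it was 10 without Tet2KO 3, 3 without Idh1R132H 3 and 3 without Idh1R132H 4. Ccna2, cyclin A2, was at 122, 74.4, 122 and 109.9 TPM in Tet2KO and 180.2, 180.1, 181 and 195 TPM in Idh1R132H, a clear separation that held in every alternative, a log2 difference of -0.80 ± 0.14 (SE; adjusted p = 0.00377), and -0.64 (adjusted p = 0.00405) without Tet2KO 2. Plk1, the mitotic kinase, was at 126, 102, 149 and 149 TPM in Tet2KO and 201, 185, 186 and 185 TPM in Idh1R132H. Plk1 had a log2 difference of -0.54 ± 0.10 (SE; adjusted p = 0.00556), and -0.42 (adjusted p = 0.00611) without Tet2KO 2, and fitting only the 2 groups ended the call (adjusted p = 0.0573). Ccne1, cyclin E1, which drives entry into S phase, was at 11.5, 9.21, 9.68 and 10.3 TPM in Tet2KO and 20.8, 18.0, 18.5 and 27.4 TPM in Idh1R132H. Ccne1 had a log2 difference of -0.97 ± 0.21 (SE; adjusted p = 0.0102), and -0.93 (adjusted p = 0.0195) without Tet2KO 2. Mki67, the proliferation marker, had a difference of -0.53 ± 0.14 (adjusted p = 0.0256), and the call ended without Tet2KO 2 (adjusted p = 0.0571), without Tet2KO 4 (adjusted p = 0.0556) and without Idh1R132H 4 (adjusted p = 0.0736). The Mcm2, Mcm3 and Mcm5 subunits of the replicative helicase had differences of -0.56, -0.46 and -0.43, called with all libraries and not without Tet2KO 2 (adjusted p = 0.0535, 0.0671 and 0.0532).

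**Figure D4:**
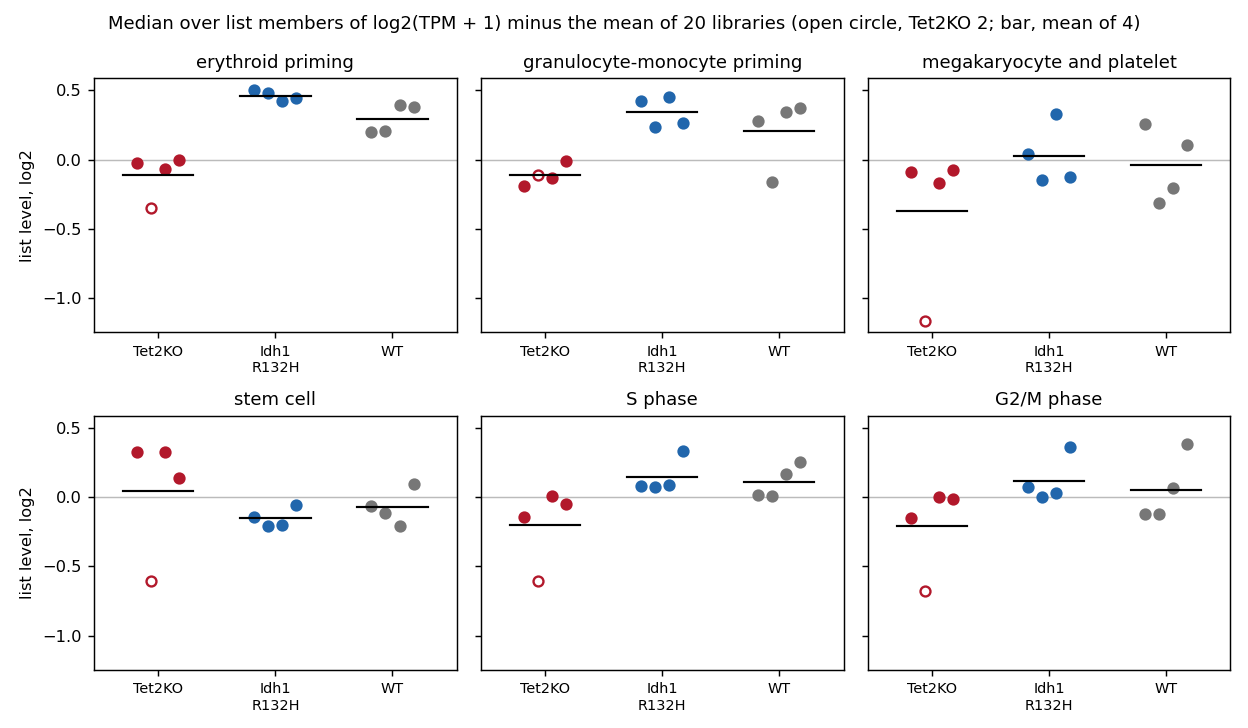
Level of 6 gene lists per library (vertical axes, log2) in Tet2KO, Idh1R132H and WT. The level is the mean, not the median, over members of log2(TPM + 1) minus the gene's mean over 20 libraries. Bars give the mean of 4 libraries, and an open circle marks Tet2KO 2. The erythroid list is at -0.35 in Tet2KO 2, -0.07 to 0.00 in the other Tet2KO libraries and 0.42 to 0.50 in Idh1R132H. Tet2KO 2 also stands apart from its group in the megakaryocyte, stem cell, S phase and G2/M panels.

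Some genes of the metabolism around Idh1 fell. Of 37 tested genes of the IDH, TCA cycle and 2-oxoglutarate list, 8 fell and none rose in limma, with a median of -0.22, against 3 lower and 1 higher with a median of -0.10 without Tet2KO 2. Of all tested genes 6.74% fell with Tet2KO 2 and 4.33% without it. The lower count was 3 without Tet2KO 2, 4 without Tet2KO 4, 1 without Idh1R132H 1, 2 without Idh1R132H 2, 0 without Idh1R132H 3 and 4 without Idh1R132H 4. Cs, citrate synthase, and Ogdh, a subunit of the 2-oxoglutarate dehydrogenase complex, had differences of -0.47 ± 0.13 (adjusted p = 0.0265; 0.0295 without Tet2KO 2) and -0.69 ± 0.21 (adjusted p = 0.0387; 0.0254), and Me2, mitochondrial malic enzyme, of -0.49 ± 0.13 (adjusted p = 0.0203; 0.0255). The Cs call ended without Idh1R132H 1 (adjusted p = 0.053), without Idh1R132H 2 (adjusted p = 0.0504) and without Idh1R132H 3 (adjusted p = 0.0745), and that of Me2 without Idh1R132H 3 (adjusted p = 0.0562). Both calls also ended with the length trend removed (adjusted p = 0.0857 for Cs and 0.101 for Me2). Fitting only the 2 groups ended both as well (0.129 for Cs and 0.107 for Me2). The gene list of TET, DNMT and base excision enzymes had 2 of 25 tested members higher, near the 7.18% of all tested genes: Mbd2 (0.58) and Gadd45b (0.84). The Mbd2 call ended without Tet2KO 2, Tet2KO 4, Idh1R132H 1, Idh1R132H 2, Idh1R132H 3 or Idh1R132H 4 (adjusted p = 0.0545 to 0.106) and the Gadd45b call without Tet2KO 1, Tet2KO 2, Tet2KO 3, Tet2KO 4, Idh1R132H 1, Idh1R132H 2 or Idh1R132H 3 (adjusted p = 0.0555 to 0.117). The methyltransferase genes Dnmt1, Dnmt3a and Dnmt3b stood at -0.63, -0.02 and -0.24 without a call.

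Of 41 tested genes for other dioxygenases that use 2-oxoglutarate, 2 rose and 3 fell, near the 7.18% and 6.74% of all tested genes, and without Tet2KO 2 it was 3 and 2. The lower count was 7 without Tet2KO 1, 7 without Tet2KO 3, 0 without Tet2KO 4, 0 without Idh1R132H 1, 0 without Idh1R132H 3 and 0 without Idh1R132H 4, and the higher count was 1 without Tet2KO 4, 1 without Idh1R132H 1, 1 without Idh1R132H 2 and 1 without Idh1R132H 3. Kdm6b, a demethylase of histone lysines, was at 5.28, 8.39, 4.59 and 5.24 TPM in Tet2KO and 3.17, 3.04, 2.73 and 3.58 TPM in Idh1R132H. Every Tet2KO library was above every Idh1R132H library, a log2 difference of 0.71 ± 0.15 (SE; adjusted p = 0.0091), and 0.55 (adjusted p = 0.0126) without Tet2KO 2, while fitting only the 2 groups ended the call (adjusted p = 0.0646). Alkbh6, of the AlkB family, had a difference of 0.58 (adjusted p = 0.0289), a call that ended without Tet2KO 4, Idh1R132H 1, Idh1R132H 2 or Idh1R132H 3 (adjusted p = 0.064 to 0.0935). The 3 that fell were Alkbh5, an RNA demethylase (-0.82, adjusted p = 0.0315), Plod3, a lysyl hydroxylase of collagen (-0.61, adjusted p = 0.0236), and Riox1, a ribosomal oxygenase (-1.003, adjusted p = 0.0288). The Plod3 call ended without Tet2KO 2, Tet2KO 4, Idh1R132H 1, Idh1R132H 3 or Idh1R132H 4 (adjusted p = 0.0516 to 0.0658), and that of Riox1 without Tet2KO 4, Idh1R132H 1, Idh1R132H 2, Idh1R132H 3 or Idh1R132H 4 (adjusted p = 0.0514 to 0.0843).

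Outside the lists, the deepest fall was that of Sva, which encodes seminal vesicle antigen (ENSMUSG00000023289, chr6:42038394-42042851, plus strand). It was at 0, 0, 0.135 and 0 TPM in Tet2KO and 9.74, 7.96, 6.38 and 12.3 TPM in Idh1R132H, which is 1 rebuilt read in all 4 Tet2KO libraries together and 56 to 99 per Idh1R132H library. The log2 difference was -3.26 ± 0.20 (SE; adjusted p = 3.13e-08), and -3.24 (adjusted p = 4.85e-07) without Tet2KO 2, and WT was at 8.03 to 9.97 TPM, inside the Idh1R132H range. Rps6ka2, which encodes the kinase RSK3 (ENSMUSG00000023809, chr17:7170115-7303315, plus strand), was at 0.841, 0.347, 0.748 and 0.909 TPM in Tet2KO and 5.23, 4.44, 4.86 and 4.34 TPM in Idh1R132H. Rps6ka2 had a log2 difference of -1.75 ± 0.20 (SE; adjusted p = 1.87e-04), and -1.64 (adjusted p = 7.67e-04) without Tet2KO 2. Chdh, choline dehydrogenase of the mitochondrion, was at 13.1, 4.24, 11.3 and 8.99 TPM in Tet2KO and 25.9, 29.8, 34.8 and 44.8 TPM in Idh1R132H. Chdh had a log2 difference of -1.81 ± 0.31 (SE; adjusted p = 0.00281), and -1.51 (adjusted p = 0.0046) without Tet2KO 2. In each of these 3 genes the groups were wholly separate. Cited4, a cofactor that binds CBP and p300, was at 1.89, 1.29, 1.27 and 1.42 TPM in Tet2KO and 6.97, 5.96, 6.53 and 5.85 TPM in Idh1R132H. Cited4 had a log2 difference of -1.57 ± 0.28 (SE; adjusted p = 0.00377), and -1.54 (adjusted p = 0.00708) without Tet2KO 2, and Slc7a5, a transporter of large neutral amino acids, at 67.8, 34.7, 59.6 and 47.6 TPM in Tet2KO and 125, 125, 148 and 131.7 TPM in Idh1R132H. Slc7a5 had a log2 difference of -1.36 ± 0.25 (SE; adjusted p = 0.00442), and -1.18 (adjusted p = 0.00947) without Tet2KO 2. In WT, Cited4 was at 2.23 to 8.74 TPM and Slc7a5 at 82.5 to 182 TPM, above every Tet2KO library. Further falls were Mrs2, a mitochondrial magnesium channel (-1.51, adjusted p = 0.00999), Edem3, of the endoplasmic reticulum (-1.41, adjusted p = 0.00804, or 0.0626 when only the 2 groups were fitted), and Ces2g, a carboxylesterase (-1.40, adjusted p = 0.00145).

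Further rises included a nuclear RNA and immediate early genes. Malat1, a long non-coding RNA retained in the nucleus (ENSMUSG00000092341, chr19:5795690-5802672, minus strand), was at 226, 318, 198 and 259 TPM in Tet2KO and 104, 87.2, 91.3 and 103 TPM in Idh1R132H. Every Tet2KO library was well above every Idh1R132H library, with a log2 difference of 1.35 ± 0.18 (SE; adjusted p = 4.71e-04), and 1.23 (adjusted p = 0.00153) without Tet2KO 2, and the call held in every alternative. Ier3, an immediate early gene, was at 220.3, 258, 206 and 241 TPM in Tet2KO and 71.7, 71.0, 72.6 and 159.7 TPM in Idh1R132H, where Idh1R132H 4 stood high in its group, a log2 difference of 1.38 ± 0.35 (SE; adjusted p = 0.019), and 1.33 (adjusted p = 0.0379) without Tet2KO 2. Its call ended without Idh1R132H 2 (adjusted p = 0.0506) and without Idh1R132H 3 (adjusted p = 0.0593). The immediate early list had 3 of 19 tested members higher and none lower in limma, with a median of 0.58, beside 7.18% of all tested genes that rose. Without Tet2KO 2 it had 2 higher with a median of 0.70, beside 7.16% of all. The higher count was 1 without Tet2KO 4, 1 without Idh1R132H 1, 1 without Idh1R132H 2, 0 without Idh1R132H 3 and 5 without Idh1R132H 4. The list was high in the libraries numbered 4 of all groups. Its level per library is the mean over members of log2(TPM + 1) minus the gene's mean over 20 libraries. This level was 1.00 in Tet2KO 4 and 0.20 to 0.54 in the other Tet2KO libraries. It was 0.93 in Idh1R132H 4 and -0.71 to -0.64 in the others of that group, and 0.71 in WT 4 and -0.95 to -0.65 in the others. The part of the library number in these genes was not tested. Fosb, an AP-1 subunit of that list, was at 6.59, 14.4, 8.11 and 30.6 TPM in Tet2KO and 1.039, 1.03, 1.17 and 9.11 TPM in Idh1R132H, where 1 Idh1R132H library, the number 4, lay within the Tet2KO range. Its difference was 2.13 ± 0.65 (SE; adjusted p = 0.037), and 2.07 (adjusted p = 0.0691) without Tet2KO 2, and the call ended without Tet2KO 2 (adjusted p = 0.0691), without Tet2KO 4 (adjusted p = 0.108), without Idh1R132H 1 (adjusted p = 0.0883), without Idh1R132H 2 (adjusted p = 0.0904) and without Idh1R132H 3 (adjusted p = 0.102). Snhg20, a long non-coding RNA, was at 20.1, 22.4, 20.3 and 20.1 TPM in Tet2KO and 5.89, 4.44, 4.25 and 13.8 TPM in Idh1R132H, without overlap, a log2 difference of 1.56 ± 0.50 (SE; adjusted p = 0.0452), and 1.53 (adjusted p = 0.0801) without Tet2KO 2. Its call ended when any 1 library other than Idh1R132H 4 was left out. Trat1, an adaptor of the T cell receptor, had a difference of 1.34 (adjusted p = 0.0295), with the call ending without Tet2KO 2, Idh1R132H 1, Idh1R132H 2 or Idh1R132H 3 (adjusted p = 0.0516 to 0.078). Vpreb2, a surrogate light chain of B cell precursors, had a difference of 1.42 (adjusted p = 0.0238) on 5 to 71 rebuilt reads in Tet2KO and 0 to 4 in Idh1R132H, with the call ending without Tet2KO 2, Idh1R132H 1, Idh1R132H 2 or Idh1R132H 3 (adjusted p = 0.0516 to 0.0613). Among the 12 largest rises were 5 microRNA precursor genes (Mir1898, Mir7078, Mir706, Mir5119 and Mir378b), each resting on at most 15 rebuilt reads in any library. The call ended without Tet2KO 2, Tet2KO 3, Tet2KO 4, Idh1R132H 2, Idh1R132H 3 or Idh1R132H 4 (adjusted p = 0.0602 to 0.135) for Mir7078, without Tet2KO 4, Idh1R132H 2 or Idh1R132H 3 (adjusted p = 0.0509 to 0.0959) for Mir706, without Tet2KO 2, Tet2KO 3, Tet2KO 4, Idh1R132H 1 or Idh1R132H 4 (adjusted p = 0.0586 to 0.0837) for Mir5119 and without Tet2KO 3, Tet2KO 4, Idh1R132H 3 or Idh1R132H 4 (adjusted p = 0.0628 to 0.103) for Mir378b. That of Mir1898 ended when only the 2 groups were fitted (adjusted p = 0.0642). Mir1945, among the 12 largest falls, was listed at 0 in all 4 Tet2KO libraries with 1 to 3 reads in each Idh1R132H library.

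Markers of other cells were examined because a sort can hold them. Of all 14296 tested genes, 7.18% rose with all libraries and 7.16% without Tet2KO 2, and 7233 were above 0 with all libraries. Of 11 tested macrophage markers 4 rose and all 11 were above 0, with a median of 0.61. Without Tet2KO 2 it was 3 higher with a median of 0.65. The count was 1 without Tet2KO 4, 1 without Idh1R132H 2, 1 without Idh1R132H 3 and 2 without Idh1R132H 4. C1qb, a chain of complement C1q, was at 40.6, 62.8, 44.9 and 49.99 TPM in Tet2KO and 39.3, 17.2, 21.1 and 14.8 TPM in Idh1R132H, with 1 Idh1R132H library just under the lowest Tet2KO library, a log2 difference of 1.15 ± 0.27 (SE; adjusted p = 0.0138), and 1.03 (adjusted p = 0.0328) without Tet2KO 2, and fitting only the 2 groups ended the call (adjusted p = 0.057). The list summed to 212 to 237 TPM in Tet2KO and 123 to 214 TPM in Idh1R132H. B lineage markers had no call in limma (Igll1 1.27, adjusted p = 0.109), while all 7 of 7 tested were above 0 with a median of 0.54 (0.41 without Tet2KO 2), and sums of 118 to 140 TPM in Tet2KO and 89.2 to 107 TPM in Idh1R132H. Of 6 tested T and NK markers, all 6 were above 0 with a median of 0.55 (0.44 without Tet2KO 2) and sums of 76.4 to 104 TPM in Tet2KO and 40.9 to 94.4 TPM in Idh1R132H. Among them 1 rose, Trbc2 (1.17, adjusted p = 0.0225), with the call ending without Tet2KO 2 (adjusted p = 0.0539), without Idh1R132H 1 (adjusted p = 0.0678) and without Idh1R132H 3 (adjusted p = 0.0516), and Cd3e, Cd3d, Cd3g and Cd8a lay under the filter. The part of these cells in the results was not tested.

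The kind and length of a gene moved with the calls. Of the 11493 tested protein-coding genes 648 (5.64%) rose and 945 (8.22%) fell. In several annotated non-coding classes rises far outnumbered falls. These were 62 against 5 of 284 long intergenic RNAs, 80 against none of 373 antisense RNAs and 87 against 1 of 278 unconfirmed transcripts. Without Tet2KO 2 these were 52 against 5, 59 against 2 and 49 against 1. The strand setting of the counting is not given in the sources used here, so reads of an antisense gene and its partner may be mixed. Gene models without a proper name, 2392 tested, had 363 higher and 22 lower. Of all tested genes 7.18% rose and 6.74% fell, or 7.16% and 4.33% without Tet2KO 2. With all libraries, rises were below the share of all genes among small nucleolar RNAs (4 of 207), microRNAs (9 of 194) and processed pseudogenes (39 of 605). Within protein-coding genes, divided into 4 equal bins by exon length, 13.8% of the bin with the shortest genes rose and 3.44% fell, whereas 2.09% of the longest bin rose and 11.4% fell. Without Tet2KO 2 the shares were 12.8% and 2.23% in the shortest bin and 3.17% and 7.31% in the longest.

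With a length trend removed in each library, a setting added after the pattern was seen, 17 erythroid and 12 granulocyte-monocyte members fell, against 15 and 10 on the values as deposited. The lower calls over all tested genes also grew, to 1654 of 14233 from 963 of 14296, so the larger list counts go with a larger count overall in that setting. The ribosomal protein genes, which are short, had 10 of 79 higher and none lower in limma with all libraries (median 0.27). Of all tested genes 7.18% rose. Without Tet2KO 2, 3 ribosomal genes rose (median 0.12), beside 7.16% of all, and none did with the length trend removed. Their higher count was 20 without Tet2KO 1, 3 without Tet2KO 2, 16 without Tet2KO 3 and 3 without Tet2KO 4. It was 4 without Idh1R132H 1, 4 without Idh1R132H 2, 0 without Idh1R132H 3 and 3 without Idh1R132H 4.

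**Figure D5:**
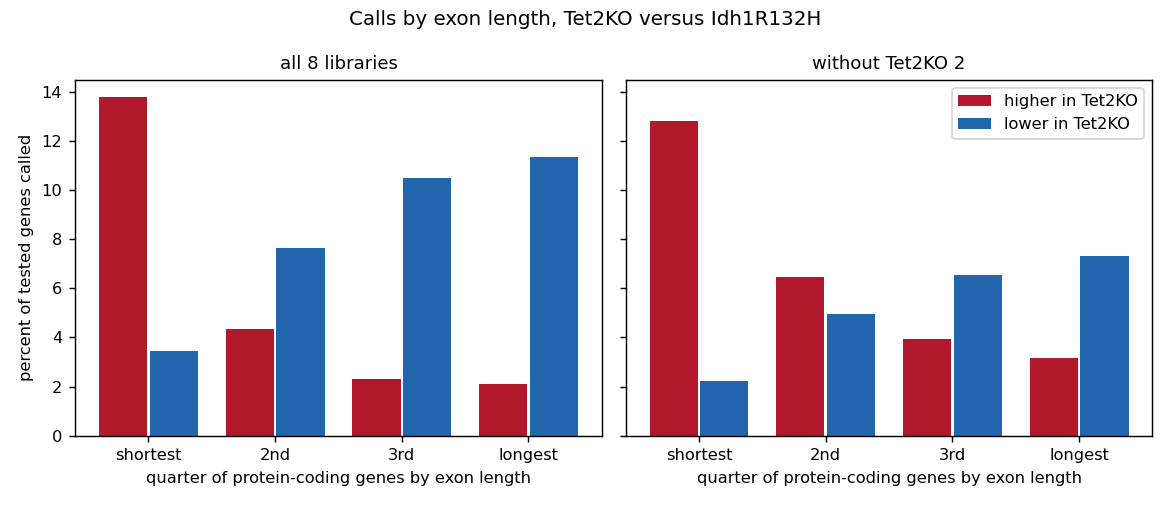
Percent of tested protein-coding genes called higher (red) or lower (blue) in Tet2KO than in Idh1R132H (vertical axis, from 0) by bin of exon length (4 equal bins), with all 8 libraries and without Tet2KO 2. The share of higher genes drops from 13.8% in the shortest to 2.09% in the longest bin, and the share of lower genes grows from 3.44% to 11.4%.

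By position, 11.9 to 15.7% of tested genes were called on each of the autosomes and X. In the 10 Mb on either side of Tet2, 8 of 74 tested genes were called (10.8%), against 14.1% of all tested genes of chromosome 3. Around Idh1 it was 21 of 111 (18.9%), 16 of them higher in Tet2KO, against 13.9% for chromosome 1.

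Differences from WT share libraries with the main comparison, so they are given side by side only, as log2 values. For Gata1, Tet2KO minus WT was -0.71 (adjusted p = 0.00545) and Idh1R132H minus WT was 0.27 (adjusted p = 1). For Klf1 the values were -0.95 (adjusted p = 4.63e-04) and 0.25 (adjusted p = 1), for Ifitm1 0.83 (adjusted p = 3.57e-04) and -0.27 (adjusted p = 1), and for Il4 1.64 (adjusted p = 8.82e-04) and -0.21 (adjusted p = 1). Some genes stood between: for Mpo the values were -0.49 (adjusted p = 0.125) and 0.32 (adjusted p = 1), for Hdc -0.70 (adjusted p = 0.0534) and 0.65 (adjusted p = 1), and for Gp1bb -0.86 (adjusted p = 0.0516) and 0.49 (adjusted p = 1), so that neither side alone passed the test where the direct comparison did. Fhl2, a LIM domain cofactor chosen here after its values were seen, had its high level in Idh1R132H: it was at 3.21, 1.81, 2.60 and 2.80 TPM in Tet2KO, 6.32, 7.80, 6.41 and 8.17 TPM in Idh1R132H and 1.12 to 2.84 TPM in WT, and the difference between the mutants was -1.19 ± 0.18 (SE; adjusted p = 0.0018), and -1.07 (adjusted p = 0.00323) without Tet2KO 2.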

How the data were processed

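RNA-seq was made from total RNA of sorted LSK cells in 20 libraries, 4 in each of 5 groups, of which 8 were compared. Per the submitters' processing notes, Trim Galore, STAR, featureCounts and mm10 were used; versions, annotation release and strand setting are not given in the sources used here. The authors deposited TPM, which are not counts, so no count test was the main result. Here, log2(TPM + 1) was tested over 14296 genes (mean TPM of 1 or more in the 8 libraries) with limma 3.58.1 in R 4.3.3 (1 fit of 5 groups with a variance trend, Benjamini-Hochberg adjusted p under 0.05). A log2 difference is on that scale and understates the change of low genes. The labels do not say that pools came from separate experiments, so p-values measure the spread between these pools. Gene positions are from GENCODE M21 on GRCm38, and 45229 of 46078 IDs matched. Multiplying TPM by exon length gave whole reads, within 0.1, for 90.0 to 91.0% of values up to 30 reads, and assigned reads of 35.2 to 45.0 M per library.

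Named genes were the 12 largest rises and 12 largest falls that were called without overlap (gene models without a name, sex-linked genes and receptor segments left out), and up to 4 called members of each list by p. Further list members are named after their values were seen. Members and lists were chosen with earlier results of these data known. The test was also run on simulated data that held no outlying library and no length trend. That run therefore does not show how the calls behave under these features. Other scalings, filters, fits and left-out libraries were tried as alternatives. The settings named beside a gene as ending its call are not always all that ended it. Some named genes are not reported here.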

Additional observations from a re-analysis of the deposited data

Results flagged for a closer look

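Of 76 groups of 4 libraries, made by 38 genes in both genotypes, 10 held 1 library far from the other 3. For independent groups chosen beforehand, chance gives about 1 in 20. These genes were picked from the same data and share the same 8 libraries, so that rate does not hold for them. In Tet2KO, library 2 was apart for Vwf, at 1.19 TPM beside 4.00 to 4.12 in the other 3, for Hmga2, at 17.9 TPM beside 9.17 to 10.4, and for Ly6a, at 350.2 TPM beside 271 to 274. For Sva, Tet2KO 3 had 0.135 TPM and the other 3 were listed at 0, so the gap there follows from a single rebuilt read beside zeros. In Idh1R132H, library 4 was apart for the immediate early genes Ier3, at 159.7 TPM beside 71.0 to 72.6, and Fosb, at 9.11 TPM beside 1.03 to 1.17. The same library was apart for Hmga2, at 7.63 TPM beside 4.86 to 5.25, for Idh2, at 624 TPM beside 487 to 503, and for Ccna2, at 195 TPM beside 180.1 to 181. For Plk1, Idh1R132H 1 was at 201 TPM beside 185 to 186.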

How the results depend on the processing

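No alternative run turned a called gene to the opposite direction with a call. On the values as deposited 1990 genes were called, 1027 higher and 963 lower in Tet2KO. The fit of the 2 groups alone called 567 (305 higher, 262 lower), and library weights called 6159 (4678 higher, 1481 lower), with a median of all genes of 0.14. Median-of-ratios scaling called 3533 (2023 lower), quantile scaling 3528 (2013 lower), and rescaling after dropping histone genes, mitochondrial genes and the top 20 by abundance gave 1551 lower. limma-voom on the rebuilt reads called 3693 (2369 higher), with a median of all genes of 0.13. Without a filter 585 were lower, and a filter at 5 TPM left 659 higher. Removing a length trend, a setting added after seeing the data, called 3030 (1654 lower). Leaving out 1 library at a time gave 691 to 2524 called, 388 to 1024 higher and 303 to 1510 lower. Leaving out Tet2KO 2 with the libraries numbered 4 of WT and the Idh groups called 4693 (3792 higher). The replicate block called 3619 (1973 higher, 1646 lower). Deviations of same-numbered Tet2KO and Idh1R132H libraries correlated at -0.15, 0.12, -0.02 and -0.08, not all above 0.1, so the numbers were not taken as a pairing, although the libraries numbered 4 share a high immediate early level. The causes of these moves were not tested. Of the values for single named genes under the alternatives, 2372 kept direction and side of the threshold, 459 lost the call, 20 gained one and none reversed. Of the list medians, 813 moved by less than the spread between replicates and 21 by more. Genes of few reads, the microRNA precursors above all, are limited by depth.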
